A study of Rattus norvegicus with 12 samples.

Results

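Rat ventral midbrain cultures that had not been depolarized were compared between 2 collection times, 2 h and 30 min after the end of a 2 h period in control medium. The comparison took all 15866 probe sets of the array other than its control probe sets, in the 3 control arrays of each collection time, so all 15866 probe sets of the series are members and 6 of its 12 arrays were used. The other 6 arrays, from cultures depolarized with 56 mM KCl for 2 h, appear only where the same genes are followed in them. Each gene symbol carried by a single-symbol probe set was counted once, which gave 10410 genes.

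All cultures came from the ventral midbrain of CD1 rat embryos at day 12. They were plated without serum in medium with B27 supplement for 6 days, in the presence of 20 ng/ml of basic fibroblast growth factor (bFGF) and 50 ng/ml of Sonic hedgehog (SHH), and kept for 3 more days with B27 but without the growth factors. On day 9 in vitro the control cultures of both collection times received control medium for 2 h, followed by 30 min (replicates 1 to 3) or 2 h (replicates 4 to 6), with no KCl at any point. Embryos from 4 pregnant rats were combined and divided into 3 groups, and the RNA of 2 duplicate cultures was pooled for each array, so that the spread between arrays is that of pooled cultures and not of animals. The labels do not state whether the 30 min and the 2 h cultures came from the same preparation, and the collection time and the preparation cannot be told apart in this design.

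Ventral midbrain progenitors line the ventricle as radial glia and give rise to dopaminergic, GABAergic and glutamatergic neurons and, later, to glia. In culture, bFGF keeps them dividing through its receptor tyrosine kinases and the kinase ERK, whose activity is followed by the feedback inhibitors of the Sprouty and dual-specificity phosphatase families, while SHH patterns and expands the ventral cells. After withdrawal of the factors, progenitors leave the cell cycle and differentiate, so that a culture holds a mixture of dividing progenitors, young neurons, glial precursors and matrix-producing cells. In RNA from such a mixture, fewer cells of a type and less RNA of that gene per cell cannot be told apart.

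Across probe sets, Pearson correlations were 0.9970 to 0.9977 between arrays of one control group and 0.9814 to 0.9863 between arrays of different control groups. The first principal component of the control arrays held 80.3% of their variance and separated the collection times. The control 2 h replicate 6 had the lowest weight among the 6 control arrays (0.603), and leaving it out gave 5697 called probe sets in place of 5604. The 3' minus 5' signal of the array's GAPDH control probe sets was 0.489 at 30 min and 0.534 at 2 h in log2 units (exact two-sided permutation p = 0.7). That of beta-actin was 0.371 and 0.547 and that of hexokinase 1.207 and 1.495 (exact p = 0.1 for each, the smallest p that 3 arrays against 3 can give). The bacterial spike-in probe sets bioB, bioC, bioD and cre had lower means in the 2 h arrays, with log2 differences (2 h minus 30 min) of -0.318, -0.43, -0.446 and -0.224. The part of these array values in the differences described here was not tested. The floor plate factor Foxa2 lay between 8.91 and 9.82 log2 units and the midbrain factor Otx2 between 10.58 and 11.18 over the 6 control arrays, and the table holds no detection calls by which a marker could be called absent.

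At an adjusted p of 0.05 by limma, 5604 probe sets (35.3% of those tested) differed between the control groups, 2874 higher at 2 h (18.1%) and 2730 lower (17.2%). Differences of at least 2-fold, at 300 probe sets (1.89%), were uneven in direction, with 258 probe sets higher at 2 h (1.63%) and 42 lower (0.265%). Counted once per gene, at its brightest probe set over the 12 arrays, 3809 of 10410 genes were called (36.6%), 1986 higher (19.1%) and 1823 lower (17.5%), and the median difference over all genes was -0.037 log2 units. Gene lists were read against these shares. Of 221 genes in the neuronal lists, 128 were higher at 2 h (57.9%) and 10 lower (4.52%), with a median of 0.33 and 50 genes at least 2-fold higher. Of 119 cell cycle genes, 6 were higher (5.04%) and 80 lower (67.2%), with a median of -0.4 and none at least 2-fold lower. Progenitor and signalling lists held 22 higher and 57 lower of 150 genes (14.7% and 38%), glial lists 12 and 42 of 129 (9.3% and 32.6%), and matrix lists 16 and 69 of 179 (8.94% and 38.5%). Some genes belong to lists of more than 1 theme.

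**Figure D1:**
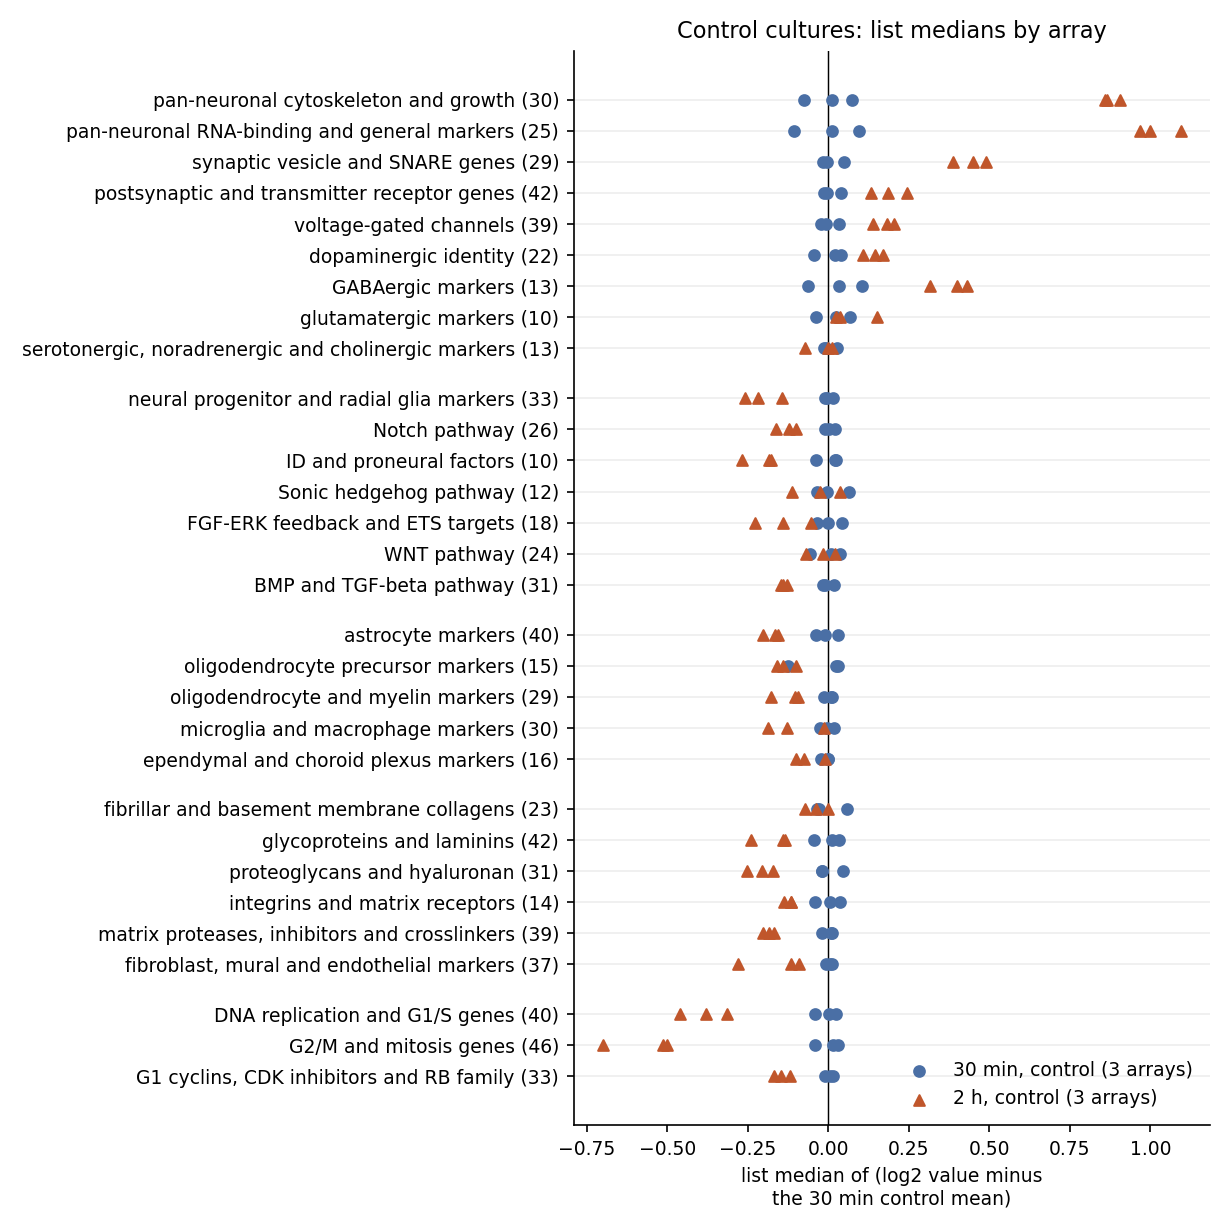
Each point is 1 control array (circles 30 min, triangles 2 h) and gives the median, over the measured members of a gene list (number in brackets), of the log2 value minus that gene's mean in the 3 arrays of 30 min. The 2 h arrays lie at 0.86 to 0.91 for neuronal cytoskeleton genes and at -0.50 to -0.70 for G2/M and mitosis genes. The groups overlap in the collagen, Sonic hedgehog, WNT, glutamatergic, microglia, ependymal and oligodendrocyte precursor lists. They also overlap in the list of serotonergic, noradrenergic and cholinergic genes.

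Neuronal and neuroendocrine genes were among the largest single rises. The 20 genes with the largest rises, chosen for their size, reached from 2.29 log2 units for Aldh1a1 to 1.69 for Ntrk2. The 20 largest rises and the 20 largest falls were taken only from called genes whose arrays did not overlap between the groups. Their separation was therefore fixed by the choice, and 49.5% of all probe sets did not overlap in either direction. Aldh1a1, a retinaldehyde dehydrogenase found in a subset of midbrain dopaminergic neurons, was at 8.15, 8.21 and 7.86 in the 30 min arrays and 10.30, 10.58 and 10.21 in the 2 h arrays. Aldh1a1 rose by 2.29 (SE 0.19, adjusted p = 2.38e-07), a 4.89-fold rise. Scg2, the precursor of the granule protein secretogranin II, was at 7.21, 7.07 and 6.80 in the 30 min arrays and 9.06, 9.30 and 9.39 in the 2 h arrays. Scg2 rose by 2.22 (SE 0.10, adjusted p = 1.07e-09), a 4.66-fold rise. In both genes every 2 h array lay more than 1 log2 unit above every 30 min array. The G protein gamma subunit gene Gng3, expressed in neurons, rose by 1.96 (SE 0.12), the striatal-enriched tyrosine phosphatase gene Ptpn5 by 1.92 (SE 0.10) and the calcineurin inhibitor gene Rcan2 by 1.79 (SE 0.11). C1qtnf4, a secreted protein of the C1q family, rose by 2.10 and Pfkp, the platelet-type phosphofructokinase of glycolysis, by 1.84. Of these 20 genes, 10 have further probe sets: in 4 (Gad1, Rcan2, Mapt and Dnajc6) these were called higher as well, and in 6 (Gnas, Cd200, Glra2, Gabrb2, Fry and Ntrk2) none was called. Ntrk2, the receptor of the neurotrophin BDNF, rose by 1.69 at 1 probe set and differed by -0.19 and -0.08 at the others (adjusted p = 0.1 and 0.339). Gnas, the stimulatory G protein alpha subunit, rose by 1.94 at 1 probe set against 0.14 and 0.09 at the others.

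The letters upstream of Scg2 are shown because this gene carries the largest rise among genes whose promoter window holds a 9-letter part of RE1, the element bound by the repressor REST that silences neuronal genes outside neurons. The sequence runs 5' to 3' on the strand of the gene over the 250 bases before its start (RefSeq, GRCr8, chr9:88256867-88257116, minus strand), and the capitals mark that part, which lies on the opposite strand and begins at base -62 counted from the start.
Scg2: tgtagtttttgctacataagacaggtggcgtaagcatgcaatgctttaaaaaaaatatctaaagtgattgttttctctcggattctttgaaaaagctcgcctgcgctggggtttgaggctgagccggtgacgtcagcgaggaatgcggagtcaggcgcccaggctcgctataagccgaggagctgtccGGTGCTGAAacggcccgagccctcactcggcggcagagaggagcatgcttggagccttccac
The letters searched were TTCAGCACC on either strand, in the window from 250 bases before to 50 after the start. They occurred in 104 of 27457 rat promoter windows (0.379%) and in 44 of 8632 windows of measured genes (0.51%). They were in 17 of 1628 windows of genes called higher at 2 h (1.04%) and in 1 of 1515 windows of genes called lower (0.066%). Of the neuronal lists searched, they were in 0 of 19 windows of cytoskeleton genes, 1 of 21 of general neuronal genes and 1 of 24 of synaptic vesicle genes. Besides Scg2 the higher genes with these letters included Disp2 (1.40), the neuronal RNA-binding gene Elavl4 (1.09), the cadherin gene Celsr3 (1.07), Sez6l2 (0.88) and Kidins220 (0.88). The lower gene was Mylk, the smooth muscle myosin light chain kinase (-0.63). A match of letters is a description of the window and not a binding site. The named examples were picked with their values known.

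Genes of the neuronal cytoskeleton and of axon growth were higher at 2 h in 24 of 30 measured members (80%) and lower in 0, with a median of 0.85 log2 units. The microtubule-associated tau gene Mapt was at 11.20, 11.00 and 11.10 in the 30 min arrays and 12.77, 12.95 and 12.89 in the 2 h arrays. Mapt rose by 1.77 (SE 0.08, adjusted p = 1.07e-09). Stmn2, a tubulin-binding growth cone protein, was at 11.93, 11.54 and 11.90 in the 30 min arrays and 13.30, 13.27 and 13.30 in the 2 h arrays. Stmn2 rose by 1.50 (SE 0.09, adjusted p = 1.08e-08). Gap43, a growth cone membrane protein, was at 12.23, 11.91 and 12.22 in the 30 min arrays and 13.38, 13.41 and 13.37 in the 2 h arrays. Gap43 rose by 1.27 (SE 0.08, adjusted p = 1.65e-08). In all 3 genes the 2 h values were tightly grouped and well above the 30 min values, of which that of replicate 2 was the lowest in each. The neuron-specific tubulin gene Tubb3 rose by 1.16 (SE 0.10), Dcx, a microtubule protein of migrating young neurons, by 1.06 (SE 0.08), and L1cam, an axonal adhesion molecule, by 1.43 (SE 0.08). Of the intermediate filament genes Ina rose by 1.50, Nefl by 1.26 and Nefm by 0.91, whereas the heavy neurofilament gene Nefh, typical of mature axons, differed by 0.15 (adjusted p = 0.111, 0.0498 with quantile normalization and 0.0172 with loess removal of the intensity trend). Map2, a dendritic microtubule protein, rose by 0.33 (adjusted p = 0.0173), a call that was lost without control replicate 1, 3 or 6 (adjusted p = 0.0576, 0.0641 and 0.0799) and with quantile normalization (0.0787). Dimmer probe sets of Tubb3, Dcx and Gap43 were not called (-0.10, -0.04 and -0.01). A dimmer probe set of Basp1, a growth cone protein that rose by 0.93, was called lower (-0.30, adjusted p = 0.0038).

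The list of neuronal RNA-binding proteins and general neuronal markers had 21 of 25 members higher, 1 lower and a median of 1.04. Celf5, a neuronal splicing regulator, was at 9.53, 9.45 and 9.67 in the 30 min arrays and 11.43, 11.25 and 11.30 in the 2 h arrays. Celf5 rose by 1.78 (SE 0.09, adjusted p = 2.27e-09), and all 2 h arrays lay above all 30 min arrays. Its relative Celf4 rose by 1.60 (SE 0.07), the neuronal enolase gene Eno2 by 1.25 (SE 0.09) and the imprinted noncoding RNA Meg3 by 1.10 (SE 0.07). Granule and synuclein genes of the list rose too, among them Scg5 (1.24), Chgb (1.23), Chga (1.04) and Sncb (1.52), named after their values were seen. Rbfox3, which encodes the nuclear antigen NeuN of more mature neurons, rose by 0.57 (adjusted p = 0.000558).

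Among synaptic vesicle and SNARE genes 19 of 29 members were higher and 1 lower (median 0.48). Sv2a, a vesicle membrane glycoprotein, was at 7.61, 7.45 and 7.55 in the 30 min arrays and 9.10, 9.33 and 9.11 in the 2 h arrays. Sv2a rose by 1.65 (SE 0.08, adjusted p = 2.12e-09). Syngr3, another vesicle membrane protein, was at 8.10, 7.82 and 8.22 in the 30 min arrays and 9.71, 9.88 and 9.55 in the 2 h arrays. Syngr3 rose by 1.67 (SE 0.13, adjusted p = 1.14e-07). The groups did not overlap in either gene. Rab3a, the vesicle GTPase, rose by 1.35, the plasma membrane SNARE gene Stx1a by 1.33, Snap25 by 0.85, the endocytic GTPase gene Dnm1 by 1.07, Syn1 by 0.98 and Syp by 0.69, all with adjusted p at or below 0.000139. Snap91, a clathrin adaptor of the presynapse, rose by 1.31, while its dimmer probe set was not called (-0.07).

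Transmitter receptor and postsynaptic genes moved less uniformly, with 22 of 42 members higher and 4 lower (median 0.18), and voltage-gated channel genes had 19 of 39 higher and 2 lower (median 0.15). The glycine receptor gene Glra2, a subunit typical of the embryo, was at 6.87, 7.09 and 6.82 in the 30 min arrays and 8.72, 8.79 and 8.57 in the 2 h arrays. Glra2 rose by 1.77 (SE 0.09, adjusted p = 1.97e-09). Gabra5, a subunit of the GABA-A receptor, was at 7.54, 7.30 and 7.49 in the 30 min arrays and 8.96, 9.04 and 8.99 in the 2 h arrays. Gabra5 rose by 1.56 (SE 0.10, adjusted p = 1.02e-08). Both genes were higher in every 2 h array. The obligatory NMDA receptor subunit gene Grin1 rose by 0.81 (SE 0.08) and the AMPA receptor gene Gria2 by 0.39 (SE 0.09), whereas the NMDA receptor gene Grin2b differed by -0.14 (adjusted p = 0.163). A dimmer probe set of Gria2 rose by 1.04 (adjusted p = 3.35e-08), and a dimmer one of Grin1 was not called (0.17). Among the sodium channel genes Scn3a, the embryonic form, was at 8.43, 8.32 and 8.17 in the 30 min arrays and 10.12, 10.19 and 10.01 in the 2 h arrays. Scn3a rose by 1.80 (SE 0.08, adjusted p = 1.36e-09). Scn2a was at 5.90, 5.79 and 5.94 in the 30 min arrays and 7.20, 7.39 and 7.21 in the 2 h arrays. Scn2a rose by 1.39 (SE 0.07, adjusted p = 2.26e-09). Scn1a and the beta subunit gene Scn3b rose by 1.24 and 1.36, and the calcium channel genes Cacna2d3 and Cacna1h rose by 1.37 and 1.06, so that rises of 1 log2 unit or more were shared by alpha and auxiliary subunits. Gabbr1, the GABA-B receptor gene, has 5 probe sets and rose by 1.06 at the brightest, was called higher at 2 others (0.27 and 1.30), lower at 1 (-0.55, adjusted p = 0.000602) and not called at 1.

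Lists of transmitter identity differed in the share of members called, against 19.1% of all genes called higher and 17.5% lower. Of 22 dopaminergic genes 9 were higher (40.9%) and 0 lower (median 0.14), and of 13 GABAergic genes 9 (69.2%) and 0 (median 0.33). Of 10 glutamatergic genes 3 were higher (30%) and 1 lower (10%, median 0.12). Of 13 serotonergic, noradrenergic and cholinergic genes 2 were higher (15.4%) and 1 lower (7.69%, median -0.04), both below the shares over all genes. The list medians of the arrays overlapped between the groups in the glutamatergic and the serotonergic, noradrenergic and cholinergic lists. Gad1, which makes GABA from glutamate, was at 9.10, 8.39 and 9.15 in the 30 min arrays and 10.90, 10.70 and 10.80 in the 2 h arrays. Gad1 rose by 1.92 (SE 0.18, adjusted p = 5.65e-07), a 3.78-fold rise. Slc32a1, the vesicular GABA transporter, was at 7.69, 7.41 and 8.31 in the 30 min arrays and 9.54, 9.13 and 9.20 in the 2 h arrays. Slc32a1 rose by 1.49 (SE 0.18, adjusted p = 1.13e-05). In both the 30 min replicate 2 was the lowest array, and every 2 h array lay above every 30 min array. The other decarboxylase gene, Gad2, rose by 0.33 (adjusted p = 0.00435), and Gata3 and Lhx5, transcription factors of midbrain GABAergic neurons, rose by 1.02 and 0.91. Slc17a6, the vesicular glutamate transporter of midbrain neurons, was at 9.14, 8.76 and 9.03 in the 30 min arrays and 10.06, 9.74 and 9.90 in the 2 h arrays. Slc17a6 rose by 0.93 (SE 0.09, adjusted p = 1.49e-06). No array overlapped between the groups for this gene.

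Within the dopaminergic list, enzymes, transporters and transcription factors differed in size. Ddc, the decarboxylase that makes dopamine from L-DOPA, was at 8.70, 8.27 and 8.71 in the 30 min arrays and 10.10, 10.12 and 9.86 in the 2 h arrays. Ddc rose by 1.47 (SE 0.12, adjusted p = 1.4e-07), without overlap, while its dimmer probe set was not called (-0.26). Th, the rate-limiting enzyme of dopamine synthesis, was at 7.58, 7.39 and 7.62 in the 30 min arrays and 7.77, 8.10 and 8.00 in the 2 h arrays. Th rose by 0.43 (SE 0.13, adjusted p = 0.0172). The groups did not overlap, but the call was lost without replicate 2 (adjusted p = 0.0794) or replicate 5 (0.08). Slc6a3, the dopamine transporter, was at 7.42, 7.52 and 7.30 in the 30 min arrays and 7.93, 8.25 and 8.22 in the 2 h arrays. Slc6a3 rose by 0.72 (SE 0.13, adjusted p = 0.000398), and its dimmer probe set was not called (0.11). The vesicular monoamine transporter gene Slc18a2 differed by 0.07 at its brighter probe set (adjusted p = 0.615) and was called higher at the dimmer one (0.58, adjusted p = 0.00107). Nr4a2, a nuclear receptor required by dopaminergic neurons and also an immediate-early gene, was at 7.12, 7.00 and 7.01 in the 30 min arrays and 7.87, 8.05 and 7.79 in the 2 h arrays. Nr4a2 rose by 0.86 (SE 0.08, adjusted p = 8.76e-07). Foxa2 rose by 0.68 and the calcium buffer gene Calb1 by 0.98, whereas the dopamine receptor gene Drd2 differed by -0.05 and was not called. The potassium channel gene Kcnj6 has 4 probe sets and differed by -0.08 at the brightest, which was not called, by -0.28 and 0.77 at 2 that were called (adjusted p = 0.00707 and 3.1e-05) and by -0.05 at the other.

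**Figure D2:**
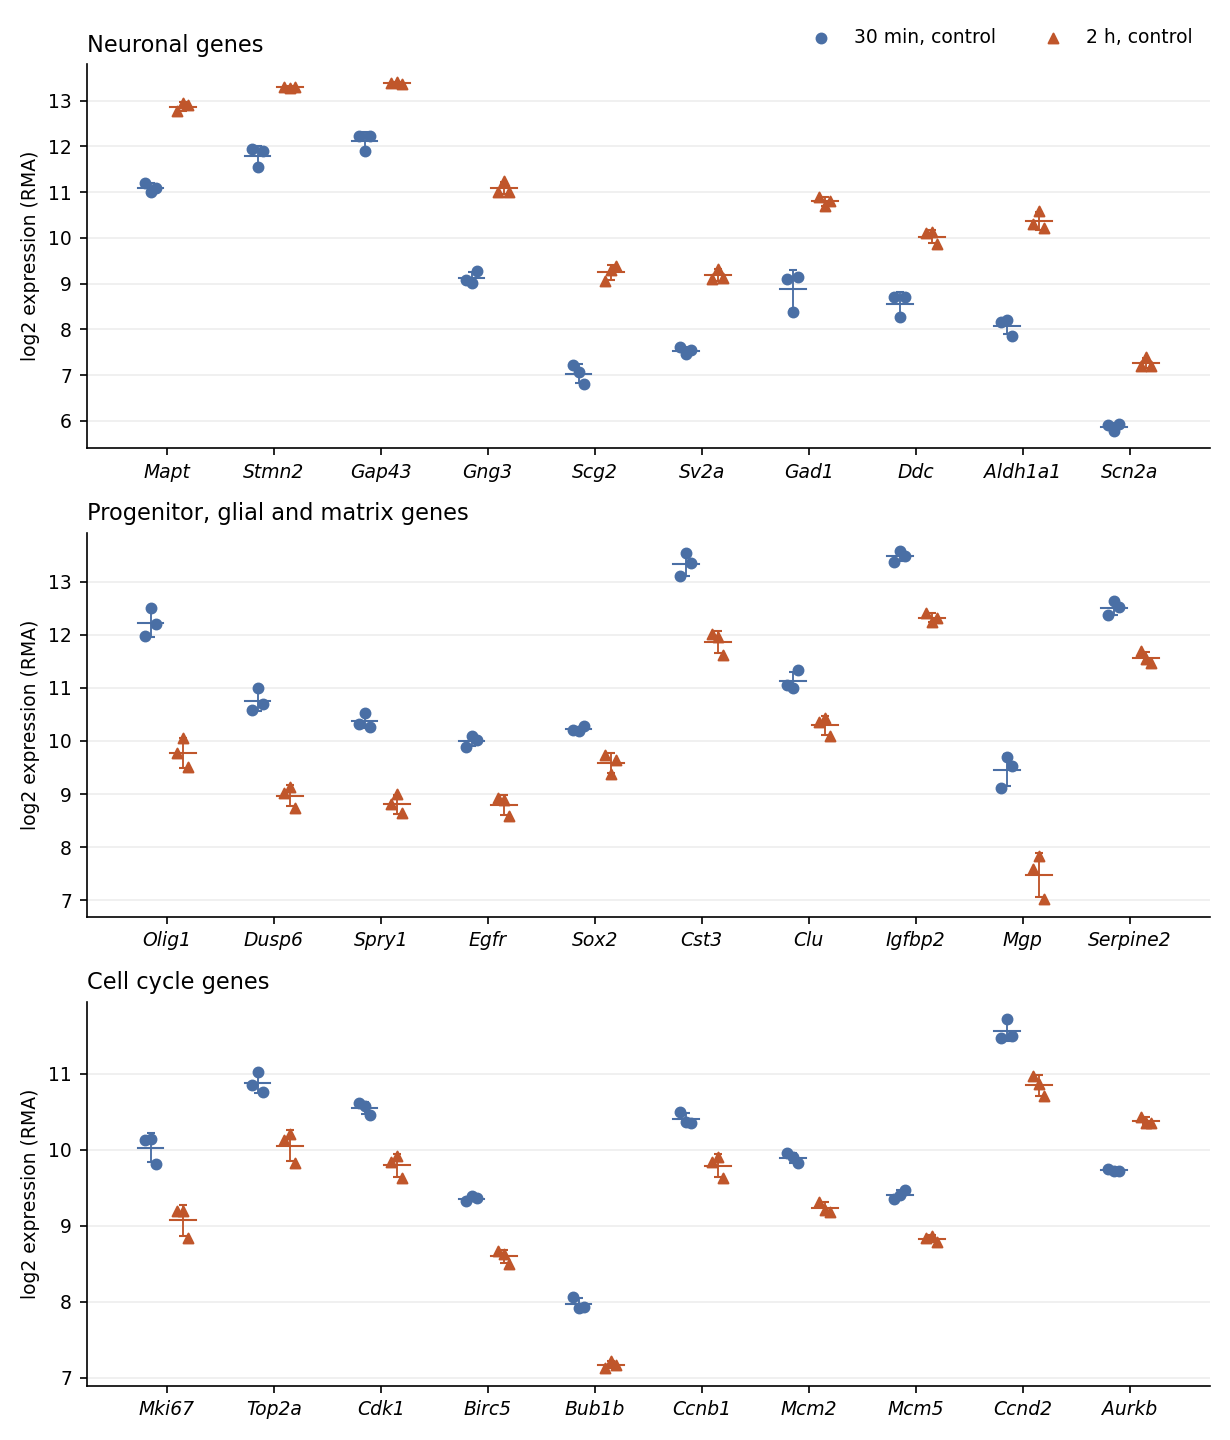
Log2 expression (RMA) of named genes in the 3 control arrays of 30 min (circles) and of 2 h (triangles), with the group mean (bar) and SD (whisker). Each gene shown is separated between the groups: the neuronal genes and Aurkb lie higher at 2 h, the other progenitor, glial, matrix and cell cycle genes lower, with Olig1 falling from a mean of 12.23 to 9.78.

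Markers of neural progenitors and radial glia were lower at 2 h in 17 of 33 measured members and higher in 6 (median -0.23). Sox2, a transcription factor that maintains progenitors, was at 10.20, 10.20 and 10.28 in the 30 min arrays and 9.74, 9.38 and 9.64 in the 2 h arrays. Sox2 fell by 0.64 (SE 0.10, adjusted p = 0.000142). Egfr, the receptor through which later progenitors respond to EGF, was at 9.89, 10.09 and 10.02 in the 30 min arrays and 8.92, 8.89 and 8.58 in the 2 h arrays. Egfr fell by 1.20 (SE 0.11, adjusted p = 4.81e-07). Fabp7, the brain lipid-binding protein of radial glia, was at 13.34, 13.48 and 13.31 in the 30 min arrays and 12.84, 13.04 and 12.96 in the 2 h arrays. Fabp7 fell by 0.43 (SE 0.08, adjusted p = 0.000794). The groups were apart in all 3 genes, although the dimmer Egfr probe set was not called (-0.18). Lrp2, Ptprz1 and Mdk fell by 0.76, 0.76 and 0.50. The intermediate filament gene Nes fell by 0.36 (adjusted p = 0.0137), and its call was lost without replicate 1 (0.0531) or replicate 6 (0.0682). Vim, the filament that progenitors share with astrocytes and mesenchymal cells, was at 13.68, 13.79 and 13.61 in the 30 min arrays and 13.69, 13.66 and 13.59 in the 2 h arrays and was not called (adjusted p = 0.641). The 6 members that rose were Pax6 (1.03, SE 0.11), which is expressed by progenitors and by some midbrain neurons, Cd24 (0.61), a surface protein that is strong on young neurons, the neuronal differentiation factors Sox4 (0.53) and Sox11 (0.29), the progenitor factor Pou3f3 (0.24) and the adhesion gene Cdh2 (0.21), the last 4 named after their values were seen. The Pou3f3 call was lost without replicate 1, 3, 4 or 5 and with quantile or loess normalization (adjusted p = 0.0602 to 0.119), and the Cdh2 call without replicate 1, 3, 4, 5 or 6 and with median centring, quantile or loess normalization (0.064 to 0.322). Of the other Sox4 probe sets 1 was called lower (-0.39, adjusted p = 0.00197) and 1 was not called (0.14).

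Feedback inhibitors of ERK signalling were among the largest falls. Dusp6, the phosphatase that inactivates ERK and is itself an ERK target, was at 10.59, 10.99 and 10.71 in the 30 min arrays and 9.03, 9.12 and 8.74 in the 2 h arrays at its probe set with the lowest p. Dusp6 fell by 1.80 (SE 0.15, adjusted p = 1.53e-07). Its other 2 probe sets fell by 1.92 and 1.13. Spry1, a receptor tyrosine kinase inhibitor of the Sprouty family, was at 10.33, 10.53 and 10.27 in the 30 min arrays and 8.80, 8.99 and 8.63 in the 2 h arrays. Spry1 fell by 1.57 (SE 0.13, adjusted p = 1.91e-07). Spry2 was at 9.61, 9.83 and 9.61 in the 30 min arrays and 8.43, 8.49 and 8.18 in the 2 h arrays. Spry2 fell by 1.31 (SE 0.14, adjusted p = 2.28e-06). No 2 h array reached the lowest 30 min array in any of these genes. The immediate-early and ERK target Egr1 fell by 0.95 (SE 0.19) and the phosphatase gene Dusp5 by 0.48. Over the whole list of FGF and ERK feedback genes 7 of 18 members were lower, 3 higher and 8 not called (median -0.04), so that the falls were those of a subset: Dusp4, Myc and Fos differed by 0.01, -0.05 and -0.01 and were not called, and Fgf9 and Fgfbp3 rose by 0.35 and 0.56. The ETS factor Elk3, which is not a list member, fell by 1.37, and the G protein regulators Rgs8 and Rgs16 fell by 1.52 and 1.19.

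Lists of other progenitor pathways had medians from -0.23 to -0.01. Over all genes the median was -0.037, with 17.5% called lower and 19.1% higher. In the Notch list 8 of 26 members were lower and 2 higher (median -0.10). Nrarp, a Notch target and feedback inhibitor, was at 9.26, 9.30 and 9.45 in the 30 min arrays and 8.56, 8.63 and 8.47 in the 2 h arrays. Nrarp fell by 0.78 (SE 0.08, adjusted p = 2.64e-06), without overlap, while its dimmer probe set was not called (-0.04). The ligand gene Dll3 fell by 0.59 and the receptor gene Notch1 by 0.51. The target Hes5 differed by 0.04 at its brighter probe set (adjusted p = 0.74) and was called lower at the dimmer one (-0.27, adjusted p = 0.00679). Its relative Hes1 differed by -0.19 (adjusted p = 0.0476, lost without replicate 1, 2, 4 or 5 at 0.112 to 0.151). Of the inhibitors of basic helix-loop-helix factors, Id1, Id2 and Id3 fell by 0.55, 0.69 and 0.29 and Id4 rose by 0.53. The Id3 call was lost without replicate 4 (adjusted p = 0.0557), and a dimmer Id4 probe set was not called (0.14). Of the BMP and TGF-beta pathway 11 of 31 members were lower and 3 higher (median -0.15), among them the receptor gene Bmpr1a (-0.53) and the connective tissue growth factor gene Ccn2 (-1.29), against rises of Smad1 (0.48) and Bmp2 (0.57). A dimmer Bmp2 probe set was not called (0.15). In the Sonic hedgehog list 4 of 12 members were lower and 3 higher (median -0.01), with the receptor component Smo at -0.39 and the SHH-induced factor Nkx6-1 at 0.40. In the WNT list 7 of 24 members were lower and 4 higher (median -0.05), with the secreted inhibitor gene Wif1 at -1.06. The list medians of the arrays overlapped between the groups in the Sonic hedgehog and WNT lists.

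The largest fall in the comparison was that of Olig1, a member of the oligodendrocyte precursor list. Olig1, a transcription factor of ventral progenitors and oligodendrocyte precursors, was at 11.98, 12.51 and 12.21 in the 30 min arrays and 9.77, 10.06 and 9.50 in the 2 h arrays. Olig1 fell by 2.45 (SE 0.15, adjusted p = 1.24e-08), and every 2 h array lay more than 1 log2 unit below every 30 min array. Other members of the precursor list moved less: 6 of 15 were lower and 0 higher (median -0.18), with Bcas1 at -0.79, the NG2 proteoglycan gene Cspg4 at -0.40 and Sox10 at -0.27 (adjusted p = 0.0272, lost without replicate 2, 3, 4 or 5 and with quantile or loess normalization, at 0.0614 to 0.116). Pdgfra, the growth factor receptor that defines these precursors, differed by -0.18 and was not called (adjusted p = 0.139, 0.0231 with quantile normalization and 0.0461 with loess normalization). Of the myelin list 11 of 29 were lower and 5 higher (median -0.12), led by Cldn11, Car2 and Cnp, which fell by 0.72, 0.69 and 0.55. The compact myelin gene Mbp fell by 0.22 (adjusted p = 0.0258), a call lost without replicate 1, 3, 4 or 6 and with quantile or loess normalization (0.0514 to 0.129), and its values of 6.24 to 6.60 lay low on an array scale that started at 4.41.

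Astrocyte markers were lower in 17 of 40 measured members and higher in 4 (median -0.17). Cst3, the secreted protease inhibitor cystatin C, was at 13.11, 13.54 and 13.35 in the 30 min arrays and 12.03, 11.96 and 11.62 in the 2 h arrays. Cst3 fell by 1.47 (SE 0.13, adjusted p = 2.59e-07). Clu, the secreted chaperone clusterin, was at 11.06, 11.00 and 11.33 in the 30 min arrays and 10.36, 10.44 and 10.10 in the 2 h arrays. Clu fell by 0.83 (SE 0.12, adjusted p = 4.25e-05). Gja1, the gap junction protein connexin 43, was at 11.68, 11.59 and 11.54 in the 30 min arrays and 11.11, 11.28 and 11.08 in the 2 h arrays. Gja1 fell by 0.45 (SE 0.07, adjusted p = 8.63e-05). All 3 were lower in every 2 h array. Glul, which makes glutamine, fell by 0.56 at its brightest probe set and by 0.81 and 0.90 at the others, Htra1 fell by 0.74 and the apolipoprotein gene Apoe by 0.56. Among the members that were not called, the calcium-binding protein S100b, the glutamate transporter Slc1a2 and the water channel Aqp4 differed by 0.09, -0.06 and 0.04, although the dimmest Aqp4 probe set was called higher (0.30). Gfap, the astrocyte filament, was at 8.54, 8.51 and 8.56 in the 30 min arrays and 8.32, 8.32 and 8.35 in the 2 h arrays. Gfap fell by 0.21 (SE 0.07, adjusted p = 0.0352), and this call was lost in each of the 6 fits that left out 1 control array (adjusted p = 0.0532 to 0.1). Slc1a3, the glutamate transporter that astrocytes share with radial glia, fell by 0.27 at the brightest probe set and by 0.61 at another and was called higher at the dimmest (0.25).

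Markers of microglia and macrophages were mostly not called, with 1 of 30 higher (3.33%), 5 lower (16.7%) and 24 not called (median -0.13). Over all genes 19.1% were called higher and 17.5% lower, so the lower share was near that of all genes. Cd68 and Aif1 differed by -0.01 and -0.14, and Gpnmb, which melanocytes and other cells also express, fell by 0.85. The member that rose, Coro1a (1.37, SE 0.09), is an actin regulator of leukocytes that neurons express as well. Ependymal and choroid plexus markers had 3 of 16 higher and 3 lower (18.8% each, median -0.05), near the shares over all genes. Among them was Igfbp2, a secreted binding protein of insulin-like growth factors that several glial and mesenchymal cells make. It was at 13.38, 13.59 and 13.50 in the 30 min arrays and 12.42, 12.24 and 12.32 in the 2 h arrays. Igfbp2 fell by 1.16 (SE 0.08, adjusted p = 1.83e-08). Its 2 h values all lay about 1 log2 unit below its 30 min values. The endothelial adhesion gene Pecam1 was at 5.45, 5.45 and 5.46 in the 30 min arrays and 5.46, 5.41 and 5.43 in the 2 h arrays, near the foot of the scale, and was not called.

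In each matrix list more members were called lower than higher, and the main fibrillar collagens were not called. Over all genes 17.5% were called lower and 19.1% higher, and the share of collagen genes called lower, at 17.4%, did not exceed that. Col1a1, Col1a2 and Col3a1 differed by 0.05, 0.16 and 0.03 and the basement membrane collagen genes Col4a1 and Col4a2 by 0.09 and 0.12, with adjusted p between 0.292 and 0.797. Of 23 collagen genes 4 were lower and 1 higher (median -0.04), with Col5a3 at 9.86, 10.44 and 10.29 in the 30 min arrays and 8.36, 8.39 and 8.36 in the 2 h arrays. Col5a3 fell by 1.83 (SE 0.14, adjusted p = 1.08e-07). Its 2 h arrays were nearly identical and well below the 30 min arrays. Of 42 glycoprotein genes 18 were lower and 4 higher (median -0.20). Mgp, the matrix Gla protein that inhibits calcification, was at 9.11, 9.71 and 9.52 in the 30 min arrays and 7.59, 7.82 and 7.01 in the 2 h arrays. Mgp fell by 1.97 (SE 0.20, adjusted p = 1.51e-06), without overlap. Fn1, fibronectin, was at 11.18, 11.13 and 10.99 in the 30 min arrays and 10.60, 10.63 and 10.48 in the 2 h arrays. Fn1 fell by 0.53 (SE 0.09, adjusted p = 0.00026). Smoc1, Fbln1 and Tnc fell by 0.97, 0.61 and 0.35. The members that rose were Agrn, Nell2, Ccn3 and Reln, of which Nell2 (0.74) and Reln (0.85) are made by neurons.

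Of 31 proteoglycan and hyaluronan genes 13 were lower and 2 higher (median -0.21), with Gpc6 at -0.70, syndecan Sdc1 at -0.65 and decorin Dcn at -0.49, against Gpc2, a glypican of growing axons, at 0.86. The brain proteoglycan genes Vcan, Ncan and Bcan were not called (-0.02, 0.12 and 0.15), although Ncan was called higher without replicate 3 (adjusted p = 0.00499). Of 39 matrix proteases, inhibitors and crosslinking enzymes 17 were lower and 4 higher (median -0.15). Serpine2, the glia-derived protease inhibitor nexin, was at 12.37, 12.64 and 12.53 in the 30 min arrays and 11.70, 11.55 and 11.46 in the 2 h arrays. Serpine2 fell by 0.95 (SE 0.10, adjusted p = 3.79e-06). Timp1, an inhibitor of metalloproteinases, was at 9.27, 9.24 and 9.23 in the 30 min arrays and 8.50, 8.62 and 8.39 in the 2 h arrays. Timp1 fell by 0.74 (SE 0.13, adjusted p = 0.000354). The groups were apart in both, and Timp2, Mmp2, Plod2 and the lysyl oxidase gene Lox fell by 0.58, 0.56, 0.60 and 1.19. A dimmer Mmp2 probe set was not called (-0.09). Integrins and other matrix receptors were split, with 6 of 14 lower and 4 higher (42.9% and 28.6%, median -0.14), both above the shares over all genes (17.5% and 19.1%). Fibroblast, mural and endothelial markers had 13 of 37 lower and 1 higher (median -0.15). Tagln, the smooth muscle protein transgelin, was at 9.76, 9.91 and 9.88 in the 30 min arrays and 8.30, 8.10 and 7.72 in the 2 h arrays. Tagln fell by 1.81 (SE 0.19, adjusted p = 2.34e-06). All 2 h arrays were at least 1 log2 unit lower, while the fibroblast proteoglycan gene Lum was not called (-0.04, adjusted p = 0.743).

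Genes of cell division were lower at 2 h across the cycle, none of them by 1 log2 unit or more at its brightest probe set. Of 46 measured G2/M and mitosis genes 38 were called lower and 2 higher (median -0.60), against 17.5% of all genes called lower, and 42 had every 2 h array below every 30 min array, against 49.5% of probe sets that did not overlap in either direction. Of 40 DNA replication and G1/S genes 30 were lower and 0 higher (median -0.40). Mki67, which encodes the proliferation antigen Ki-67, was at 10.13, 10.14 and 9.81 in the 30 min arrays and 9.19, 9.19 and 8.84 in the 2 h arrays. Mki67 fell by 0.96 (SE 0.12, adjusted p = 1.52e-05). Top2a, the topoisomerase that untangles mitotic chromosomes, was at 10.86, 11.03 and 10.77 in the 30 min arrays and 10.13, 10.21 and 9.82 in the 2 h arrays. Top2a fell by 0.83 (SE 0.10, adjusted p = 1.33e-05). Cdk1, the kinase that drives mitosis, was at 10.61, 10.58 and 10.46 in the 30 min arrays and 9.84, 9.92 and 9.62 in the 2 h arrays. Cdk1 fell by 0.76 (SE 0.09, adjusted p = 8.21e-06). In these genes all 2 h arrays were below the 30 min arrays and replicate 6 was the lowest. The survivin gene Birc5 was at 9.32, 9.39 and 9.36 in the 30 min arrays and 8.66, 8.63 and 8.50 in the 2 h arrays. Birc5 fell by 0.76 (SE 0.07, adjusted p = 5.15e-07). The spindle checkpoint gene Bub1b was at 8.06, 7.92 and 7.93 in the 30 min arrays and 7.13, 7.22 and 7.16 in the 2 h arrays. Bub1b fell by 0.80 (SE 0.08, adjusted p = 1.5e-06). The cyclin gene Ccnb1 fell by 0.61 (SE 0.09) at the brighter probe set and by 1.03 at the other.

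Within replication, all 6 measured subunits of the MCM helicase fell. Mcm2 was at 9.96, 9.91 and 9.82 in the 30 min arrays and 9.32, 9.20 and 9.18 in the 2 h arrays. Mcm2 fell by 0.66 (SE 0.08, adjusted p = 6.9e-06). Mcm5 was at 9.35, 9.41 and 9.47 in the 30 min arrays and 8.84, 8.87 and 8.79 in the 2 h arrays. Mcm5 fell by 0.58 (SE 0.06, adjusted p = 3.26e-06). Mcm3 fell by 0.64 and Mcm4 fell by 0.71, while Mcm6 fell by 0.45 and Mcm7 fell by 0.31. The uracil glycosylase gene Ung fell by 0.67, the single-strand binding protein gene Rpa1 by 0.66 and the sliding clamp gene Pcna by 0.34 (SE 0.07). The members that were not called included Dnmt1 and Slbp (-0.06 and -0.09), of which Slbp, at 4.76 to 4.89, lay near the foot of the scale. Orc6, Prim1 and Rnaseh2a differed by 0.16, 0.12 and 0.16 and were not called either. Exceptions in the mitosis list were Aurkb, a kinase of the chromosomal passenger complex, at 9.75, 9.73 and 9.73 in the 30 min arrays and 10.44, 10.36 and 10.35 in the 2 h arrays (log2 difference 0.65, SE 0.06, adjusted p = 6.84e-07), and Stmn1, a tubulin-binding protein of dividing cells and of young neurons, which rose by 0.52. Aurkb was higher in every 2 h array, whereas its partner Birc5 and the related kinase gene Aurka (-0.43) were lower, and only 1 probe set named Aurkb.

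**Figure D3:**
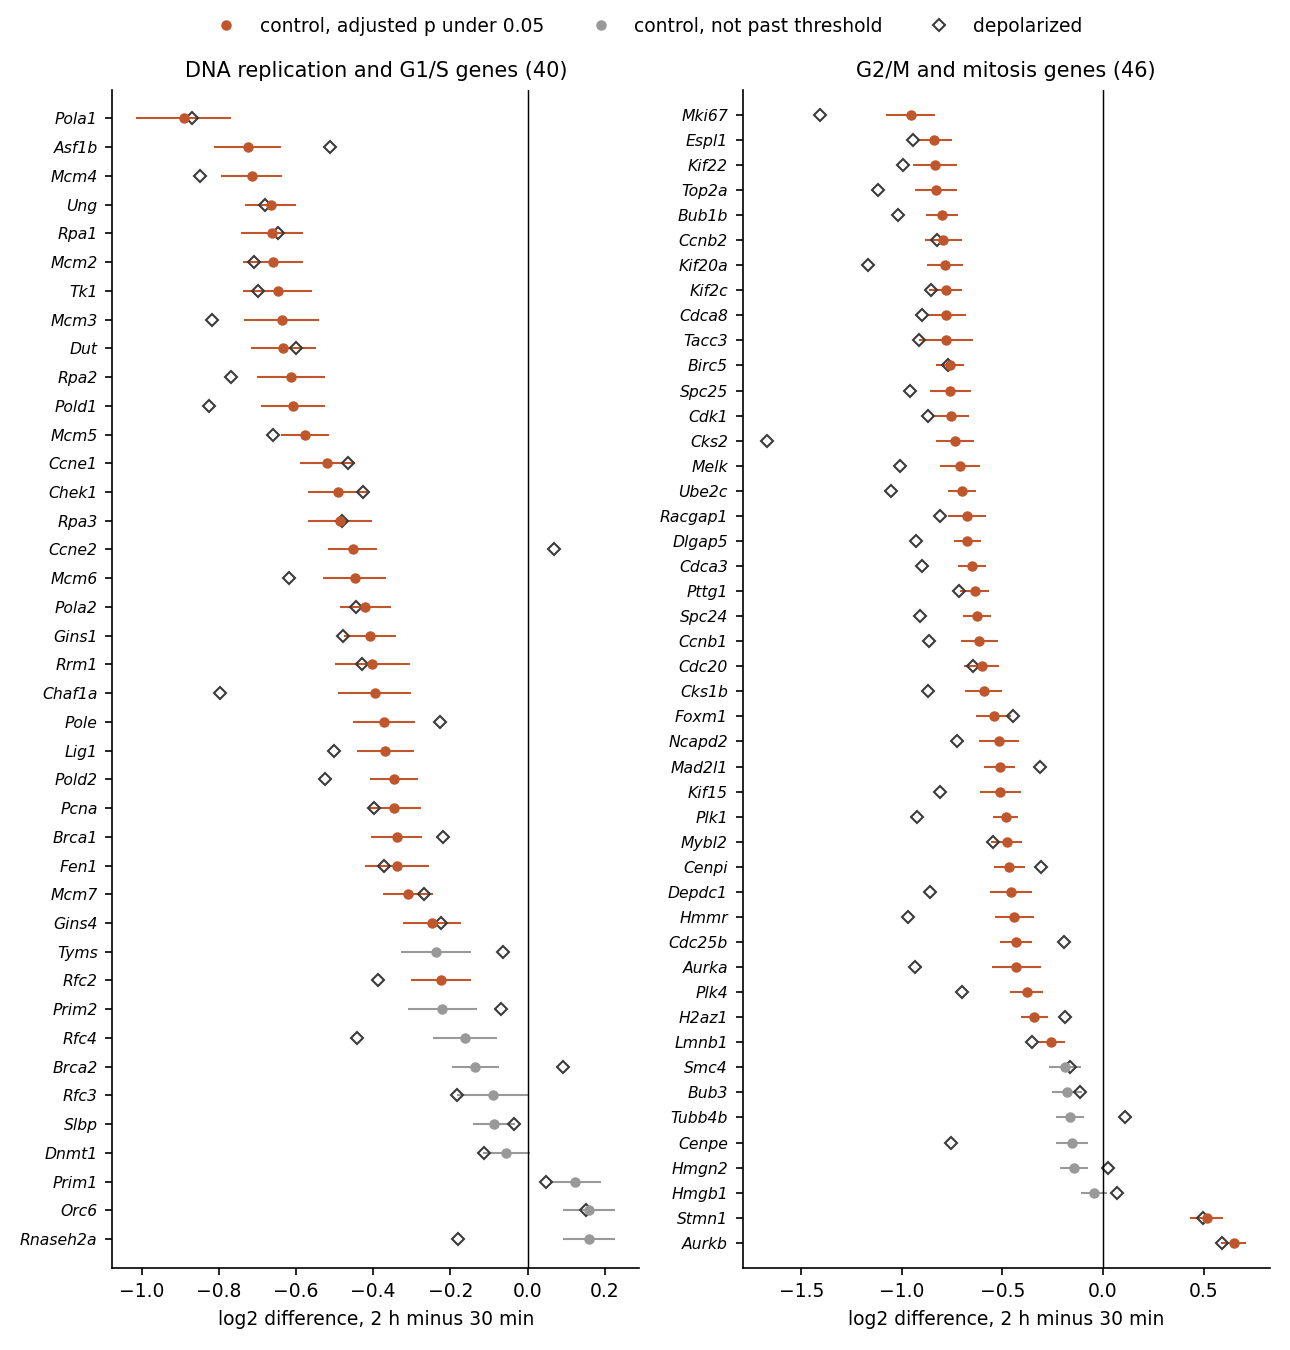
Log2 difference between 2 h and 30 min for each measured DNA replication and G1/S gene (left) and G2/M and mitosis gene (right) in control cultures (filled points, bars give the SE of the fit, orange where the adjusted p was under 0.05 and grey otherwise) and in depolarized cultures (open diamonds). Most points lie left of 0 in both comparisons, from -0.96 for Mki67 in control cultures. In control cultures Stmn1 and Aurkb were called to the right, and Orc6, Prim1 and Rnaseh2a also lie to the right without a call.

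Regulators of G1 were less uniform, with 12 of 33 lower and 4 higher (median -0.16). The cyclin gene Ccnd2 was at 11.48, 11.72 and 11.50 in the 30 min arrays and 10.98, 10.86 and 10.71 in the 2 h arrays. Ccnd2 fell by 0.72 (SE 0.10, adjusted p = 5.39e-05), below the 30 min arrays in each 2 h array. Ccnd3 and Ccnd1 fell by 0.57 and 0.34. Of the inhibitors of cyclin-dependent kinases Cdkn2a and Cdkn1a fell by 0.59 and 0.41, and Cdkn1b and Cdkn1c, which hold differentiating cells out of the cycle, differed by 0.00 and 0.02 and were not called (adjusted p = 0.984 and 0.86). A dimmer Cdkn1a probe set was not called (-0.30, adjusted p = 0.165).

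Promoters of cell cycle genes are known for short elements: late genes carry the cell cycle homology region (CHR, TTTGAA) near CCAAT boxes (CCAAT), which bind the MuvB complexes and NF-Y, and G1/S genes carry E2F sites (searched as TTTGGCGC and TTTCCCGC). The windows of 3 mitosis genes and 1 replication gene that fell are shown 5' to 3' on the strand of the gene, for the 250 bases before the start (RefSeq, GRCr8). Capitals mark every occurrence, on either strand, of CHR and CCAAT letters in the first 3 and of E2F letters in the last. They lie as follows, Cdk1 at chr20:19265043-19265292 (plus strand), Mki67 at chr1:199952594-199952843 (minus strand), Birc5 at chr10:103571896-103572145 (plus strand) and Mcm5 at chr19:13488563-13488812 (plus strand).
Cdk1: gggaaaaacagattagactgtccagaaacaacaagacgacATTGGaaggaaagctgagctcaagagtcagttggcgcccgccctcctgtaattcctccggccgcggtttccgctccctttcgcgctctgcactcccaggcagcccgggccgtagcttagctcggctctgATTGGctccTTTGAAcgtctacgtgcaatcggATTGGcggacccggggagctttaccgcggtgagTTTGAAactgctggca
Mki67: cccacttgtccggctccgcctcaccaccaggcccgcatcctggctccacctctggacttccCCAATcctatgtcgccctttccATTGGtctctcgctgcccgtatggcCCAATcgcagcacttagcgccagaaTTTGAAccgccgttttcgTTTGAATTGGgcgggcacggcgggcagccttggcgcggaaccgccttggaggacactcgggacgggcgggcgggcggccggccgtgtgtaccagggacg
Birc5: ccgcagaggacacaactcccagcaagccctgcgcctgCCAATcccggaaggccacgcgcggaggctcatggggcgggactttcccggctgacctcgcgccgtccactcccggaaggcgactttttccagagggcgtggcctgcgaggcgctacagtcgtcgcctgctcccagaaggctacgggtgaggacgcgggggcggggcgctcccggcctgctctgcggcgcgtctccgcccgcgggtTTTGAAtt
Mcm5: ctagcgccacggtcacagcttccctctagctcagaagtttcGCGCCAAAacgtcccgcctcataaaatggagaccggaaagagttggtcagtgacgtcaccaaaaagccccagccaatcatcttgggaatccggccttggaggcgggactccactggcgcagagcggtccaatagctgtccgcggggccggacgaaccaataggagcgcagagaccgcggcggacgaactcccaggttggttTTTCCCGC
In Cdk1 the CHR letters begin at bases -72 and -16 and CCAAT letters of the opposite strand at -210, -81 and -49, counted from the start. In Mki67 the CHR letters begin at -117 and -99, and the second overlaps by its last bases a CCAAT box that begins at -94. In Birc5 a CHR begins at -8, next to the start, and a CCAAT box at -213. In Mcm5 the 2 E2F forms begin at -209 and -8.

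Over windows from 250 bases before to 50 after the start, CHR letters were in 27 of 42 G2/M and mitosis genes (64.3%), in 4 of 36 replication genes (11.1%), in 11.7% of the windows of all measured genes and in 18.1% of all 27457 windows. CHR and CCAAT letters together were in 22 of 42 mitosis genes (52.4%), 4.91% of the windows of all measured genes and 7.25% of all windows. Either E2F form was in 11 of 36 replication genes (30.6%), in 1 of 42 mitosis genes (2.38%), in 2.53% of the windows of all measured genes and in 1.53% of all windows. Windows of all measured genes called lower held CHR letters in 13% and either E2F form in 2.84%, near the shares over all measured genes. Among the mitosis genes 25 of 27 with CHR letters and 10 of 15 without them were called lower, with medians of -0.6 and -0.48. Among the replication genes 8 of 11 with an E2F form and 18 of 25 without were called lower, with medians of -0.41 and -0.37. The presence of these letters is a description of the windows, and a window without them may hold other forms of the elements.

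Lists outside the neural and cell cycle themes mostly moved little. Over all genes 19.1% were called higher and 17.5% lower. Of 56 subunits of oxidative phosphorylation 4 were higher (7.14%) and 3 lower (5.36%), and of 39 ribosomal protein genes 0 were higher and 9 lower (23.1%, median -0.11). Of 28 genes of the unfolded protein and ATF4 response 13 were lower and 2 higher (median -0.20), led by the cystathionine lyase gene Cth (-0.80) and the serine synthesis gene Phgdh (-0.66). Of 27 immediate-early genes 11 were lower and 2 higher (median -0.24), with Egr1 (-0.95), Jund (-0.83) and Klf4 (-0.57) among the falls and Fos at 6.98, 6.96 and 7.04 in the 30 min arrays and 6.97, 7.08 and 6.90 in the 2 h arrays, not called (adjusted p = 0.955). Another Jund probe set was not called (-0.06). Of sterol biosynthesis genes and other targets of the factor SREBP 18 of 23 were higher and 0 lower (median 0.27). Idi1, which isomerizes isopentenyl diphosphate, was at 10.24, 10.37 and 10.40 in the 30 min arrays and 10.96, 10.80 and 10.97 in the 2 h arrays. Idi1 rose by 0.57 (SE 0.09, adjusted p = 7.99e-05), without overlap. The desaturase gene Scd and the sterol reductase gene Hsd17b7 rose by 0.67 and 0.61, while a dimmer probe set of each of Idi1 and Hsd17b7 was not called (0.25 and 0.13).

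The same genes were followed in the depolarized cultures, whose values entered the control comparison through the estimate of the spread that all 4 groups shared and through the mean that chose each gene's brightest probe set. Control and depolarized arrays of a collection time carry the same replicate numbers in the labels, so the depolarized arrays do not separate collection time from preparation. Of all probe sets, 41% were called between the collection times in depolarized cultures. Of 1986 genes higher at 2 h in controls, 1260 (63.4%) were called higher and 95 (4.78%) lower in depolarized cultures, against 20.7% of all genes called higher there. Of 1823 genes lower in controls, 1019 (55.9%) were called lower and 81 (4.44%) higher, against 22.9% of all genes called lower. The difference itself differed between depolarized and control cultures at 2055 probe sets (13%), and at 14.1% of genes, among them 471 (23.7%) of those higher and 264 (14.5%) of those lower in controls. Neuronal cytoskeleton genes were higher in 24 of 30 members in depolarized cultures too (median 0.64, 3 members with a different size of change), G2/M and mitosis genes were lower in 38 of 46 (median -0.84, 5 members) and replication genes in 31 of 40 (median -0.44, 2 members). Scg2 rose by 2.17 there against 2.22 in controls and Olig1 fell by 2.20 against 2.45 (adjusted p of the difference 0.881 and 0.547). Aldh1a1, with the largest control rise, rose by 1.37 there against 2.29 (adjusted p of the difference 0.0364, up to 0.105 over the alternatives).

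In other genes the size of the change differed. Scn2a rose by 0.45 in depolarized cultures against 1.39 in controls (adjusted p of the difference 2e-05), Mgp differed by -0.38 against -1.97 (0.00125), and Rgs8 by -0.04 against -1.52 (1.74e-05). Sterol genes were higher in 2 of 23 members and lower in 8 in depolarized cultures (median -0.15), and 11 of the 23 differed in their change between the treatments. Idi1 fell there by 0.49 (adjusted p = 0.000281) and had risen by 0.57 in controls. Ccng2, a cyclin of quiescent cells, was at 8.95, 8.83 and 8.79 in the 30 min arrays and 9.42, 9.33 and 9.15 in the 2 h arrays in controls (log2 difference 0.45, SE 0.07, adjusted p = 0.000228) and fell by 1.25 in depolarized cultures. Its control groups did not overlap, and the direction was opposite in the depolarized groups. Of the immediate-early genes 22 of 27 were lower at 2 h in depolarized cultures (median -0.76) and 16 differed in their change, and the Notch target Hes1, a weak call in controls, fell by 1.72 there.

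**Figure D4:**
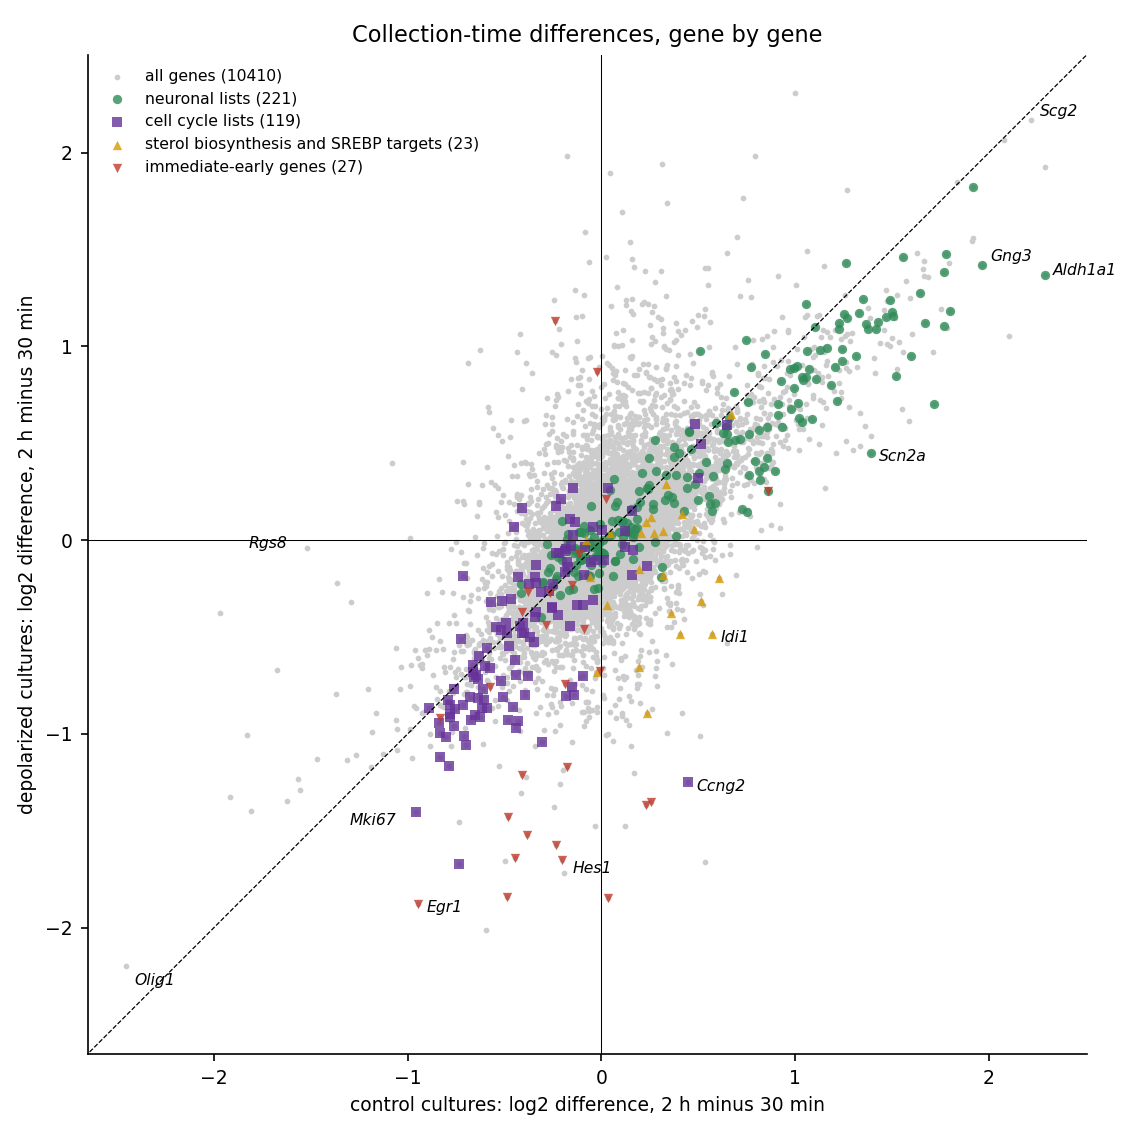
Each point is 1 gene at its brightest probe set, with the log2 difference between 2 h and 30 min in control cultures on the horizontal axis and in depolarized cultures on the vertical axis; the dashed line marks equal differences. Neuronal genes (circles) reach far to the upper right, with Scn2a well below the line, and cell cycle genes (squares) reach to the lower left. Sterol genes (triangles) lie mostly to the right of 0 and reach below 0 on the vertical axis. Immediate-early genes (inverted triangles) lie mostly below 0 on that axis.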

How the data were processed

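The deposited table holds log2 expression values of Affymetrix rat arrays that the authors made with RMA (background correction, quantile normalization, median polish), named in the submitters' processing notes; its version and settings are not given in the sources used here. Of 15923 probe sets, 57 array controls were left out. Probe sets were named through the platform annotation, with 5 symbols updated by gene identifier: 12783 carried 1 symbol, 312 several and 2771 none. Array medians lay between 8.32 and 8.43, and the number of arrays limits the precision. All 4 groups were fitted together with limma 3.58.1 (R 4.3.3, lmFit and eBayes, group means as coefficients), and p-values were adjusted by Benjamini and Hochberg's method across the 15866 probe sets, with calls made under 0.05. The fit was tested on simulated data with 50 probe sets changed at each of several sizes. It recovered 22% of changes of 0.25 log2 units, 82% of 0.5 and 100% of 1 and 2, with 7 false calls. Far fewer probe sets were changed there than were called in the data, so these shares do not carry over directly. A gene that was not called may still differ by a small amount. A gene was counted at its brightest probe set (mean of the 12 arrays). The genes named in the text had 93 other probe sets, of which 57 had the same call, 32 another call and 4 the opposite call. Not all of these are given in the text. In the text a called gene is one past the threshold. Named genes were the top 20 in each direction by size among called probe sets (of a gene's probe sets, the one with the lowest p), up to 6 members of each neuronal, progenitor, glial, matrix and cell cycle list and 3 of other lists, and fixed markers, unless said otherwise. Members, lists, motifs and examples were chosen with earlier results of these data known. Promoter windows were searched with Python 3.11.15. The replicate numbers of the control groups do not overlap, so they pair no arrays within the control comparison, and the deviations of control and depolarized arrays with the same number correlated at -0.322 to 0.236.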

Additional observations from a re-analysis of the deposited data

Results flagged for a closer look

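Over all genes 14.1% had a change between collection times that differed between depolarized and control cultures (adjusted p under 0.05, limma). Of 204 genes named in the text, 38 did. Most were chosen for a large control difference, and in 27 of the 38 the change had the same sign in both treatments and was larger in controls. The values that follow are the depolarized minus the control difference in log2 units. Among neuronal genes that rose in controls it was -0.92 for Aldh1a1, -1.05 for C1qtnf4, -0.94 for Scn2a, -0.72 for Ntrk2, -0.67 for Sncb, -0.66 for Glra2, -0.64 for Celf4, -0.62 for Scn3a, -0.61 for Nr4a2, -0.55 for Celsr3 and -0.54 for Gng3. Smaller values in this group were -0.46 for Disp2, -0.46 for Elavl4, -0.45 for Grin1, -0.44 for Sox4, -0.39 for Mapt, -0.37 for Sv2a, -0.36 for Snap91 and -0.35 for Basp1.

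Among genes that fell in controls the value was 1.59 for Mgp, 1.48 for Rgs8, 1.15 for Elk3, 0.97 for Ccn2, 0.95 for Timp1, 0.83 for Col5a3, 0.57 for Cdkn1a, 0.53 for Ccnd2, 0.44 for Glul and 0.37 for Dcn. Greater falls in depolarized cultures gave -1.53 for Hes1, -0.93 for Hes5, -0.93 for Egr1, -0.67 for Fos and -0.32 for Cd68. Ccng2 (-1.7), the sterol gene Idi1 (-1.06) and Pou3f3 (-0.51) were called in opposite directions, and Hsd17b7 (-0.8) was called only in controls. Of 20 alternatives, those without the dimmest 25% or 50% of probe sets did not test the genes they left out. In the alternatives that tested them, 24 of the 38 stayed past the threshold, and 14 were lost in at least 1: Aldh1a1, Ccnd2, Cd68, Dcn, Disp2, Egr1, Elavl4, Glul, Gng3, Mapt, Snap91, Sncb, Sox4 and Sv2a, with the highest adjusted p 0.133 for Gng3 without control replicate 5.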

How the results depend on the processing

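The count of 5604 called probe sets was 3712 at an adjusted p of 0.01, 3264 with an ordinary equal-variance test and 300 with an added 2-fold limit. The 2874 higher calls became 1814 and 258 under the last pair, and the 2730 lower calls became 1574, 1450 and 42 under the same alternatives and 1542 without the dimmest 50% of probe sets, where fewer were tested. Leaving out 1 control array gave 4298 to 5697 calls, 2337 to 2900 higher and 1961 to 2797 lower. The higher share of calls was 51.3%, 46.5% with median centring or quantile normalization and 59.7% without the dimmest 50%. The same leave-outs gave 23 to 24 higher cytoskeleton genes, 21 to 21 RNA-binding and general neuronal, 17 to 19 synaptic, 15 to 20 receptor, 16 to 19 channel and 13 to 17 sterol genes, and 38 to 39 lower G2/M, 29 to 30 replication, 15 to 16 progenitor, 14 to 16 astrocyte, 15 to 17 glycoprotein, 10 to 13 proteoglycan and 15 to 17 protease genes. Quantile normalization gave 12 higher sterol genes, against 18 in the main fit. With replicate number as a random block (correlation -0.0444) 5607 probe sets were called. Alternatives for the depolarized comparison and for the difference were chosen after seeing the data: depolarized calls (6507) were 4269 without the dimmest 50% and 5561 to 6619 with 1 array left out, the difference 1624 to 2081. Of 204 named genes 191 kept direction and side of the threshold in 13 alternatives, 13 changed side and 0 reversed. The ordinary equal-variance test and the fits without the dimmest probe sets were not among these alternatives. The cause of these shifts was not tested. Each group rests on 3 pooled-culture arrays, collection time and preparation cannot be told apart, and without detection calls a dim marker cannot be called absent.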
